A study of Mus musculus with 10 samples.

Results

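CD4+ and CD8+ effector memory T (TEM) cells of culture day 25 were compared directly with each other. The comparison rested on 4 of the 10 arrays of the series, 2 of CD4+ TEM cells and 2 of CD8+ TEM cells, which were chosen by their titles. Naive T cells (TCRβ+ and CD44-, either CD4+ or CD8+) had been sorted from the spleens of wild-type C57BL/6 mice and expanded in separate cultures. In both cultures the stimulators were γ-irradiated B lymphoma cells that carry LMP1 and LMP2A, membrane proteins of the Epstein–Barr virus, and recombinant IL-2 was added, so that both groups share stimulators and cytokine. TEM cells are defined in the study by surface markers, CD44 among them, for which they are positive. The other arrays held naive CD4+ T cells, naive CD8+ T cells and CD4+ memory cells of day 25, 2 arrays each. The 4 naive arrays gave the difference between the subsets before culture, and all 10 arrays gave the estimate of the spread. Neither the age nor the sex of the mice is given in the sources used here, and no label says whether the 2 arrays of a group came from separate mice or cultures. The p-values therefore measure only the spread between arrays, which may be technical. The sample records also carry a description as B cells and a foxo1 status that differs between the 2 CD8+ TEM arrays. Neither entry was used to form the groups.

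CD4+ T cells recognize peptides on MHC class II and are best known for the cytokines with which they direct other immune cells. CD8+ T cells recognize peptides on MHC class I and are best known for killing, through granules loaded with perforin and granzymes and through ligands of death receptors. After long stimulation CD4+ T cells can take up the killing machinery too, and such cells are called CD4+ cytotoxic T lymphocytes. The question addressed here is which genes set the subsets apart in effector memory cells raised with the same kind of stimulator. The study reports that CD8+ T cells expanded and took on the effector memory phenotype faster than CD4+ T cells. It gives the ratio of T cells to lymphoma cells as a range. Subset, culture and pace of differentiation cannot be told apart here.

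Of 18193 genes measured, 1041 (5.72%) differed between CD4+ TEM and CD8+ TEM cells at an adjusted p under 0.05 (limma, Benjamini-Hochberg over all genes). Of these, 398 (2.19% of all genes) were higher in CD4+ TEM cells and 643 (3.53%) were higher in CD8+ TEM cells. A difference of at least 4-fold was reached by 57 of the 398 and by 93 of the 643. In a fit of only the 10120 genes with a mean of at least 6 in at least 1 group, 505 and 729 were called, a larger share. The gene lists below were chosen with earlier results of these data known. Their shares of called members therefore describe the lists and are not tests of them. Genes called higher in CD4+ TEM cells included the cytokine gene *Il9*, the aryl hydrocarbon receptor target *Cyp1b1* and the chemokine gene *Ccl1*. Those called higher in CD8+ TEM cells included *Ido1*, the chemokine genes *Cxcl9* and *Cxcl11*, and *Lag3*. The largest called differences towards CD8+ TEM cells were those of *Cd8b1*, *Sval1*, *Cd8a* and *Esm1*. How the calls split between the directions depended on scaling. Calls higher in CD4+ TEM cells made up 38.2% of all calls on the deposited values, 51.5% (579 against 546) after a further quantile normalization and 72.6% (953 against 360) after each array was centred on its median, which moved every difference by 0.22 on the log2 scale towards CD4+ TEM cells. The called genes described below differ by more than this shift. With 2 arrays a group the counts also leaned on single arrays. Without the first or the second CD4+ TEM array, 202 and 117 genes were higher in CD4+ TEM cells and 262 and 161 in CD8+ TEM cells, and without the first or the second CD8+ TEM array these counts were 108 and 99, and 143 and 120.

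**Figure D1:**
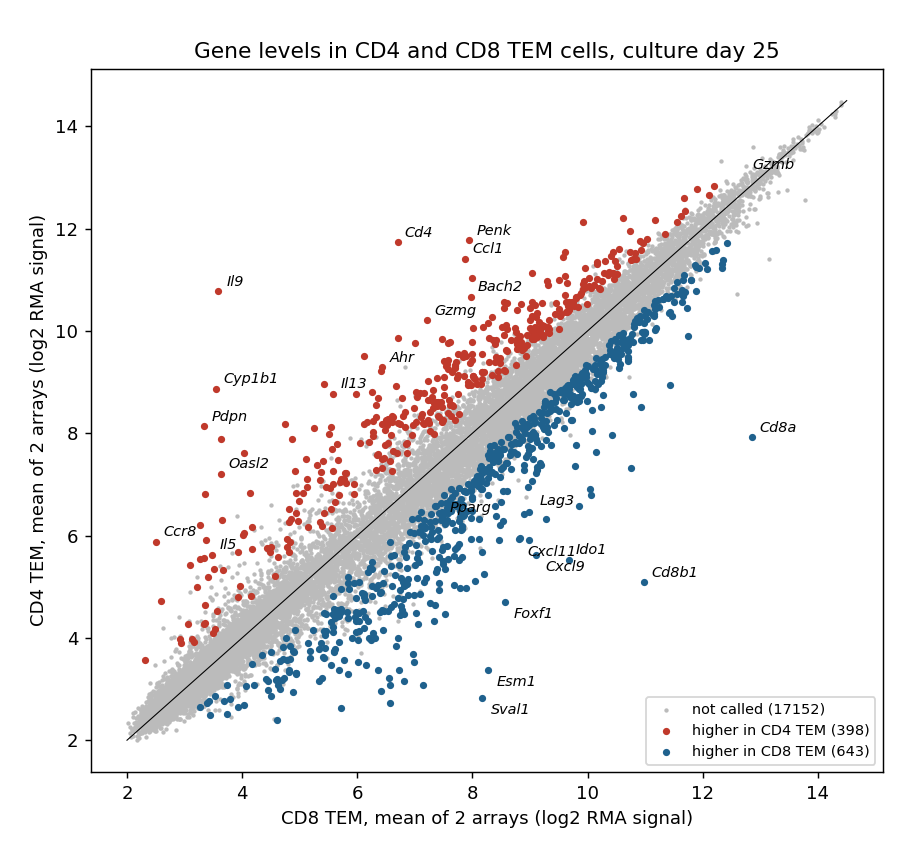
Mean level of each of 18193 genes in CD8+ TEM cells (x axis) and CD4+ TEM cells (y axis), both as log2 RMA signal over 2 arrays on day 25. The 398 genes higher in CD4+ TEM cells are red, the 643 higher in CD8+ TEM cells are blue, the others are grey, and the line marks equal levels; *Il9* lies farthest above the line and *Cd8b1* farthest below it.

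How close the arrays of a group were to each other varied. Between the 2 CD8+ TEM arrays 166 genes differed at least 2-fold and between the 2 CD4+ TEM arrays 487 did. The counts were 319 for the naive CD4+, 780 for the naive CD8+ and 1253 for the CD4+ memory arrays. T cell genes were present on all 4 arrays: *Cd3d*, *Cd3e*, *Cd3g*, *Cd247*, *Cd2* and *Cd5* read between 7.57 and 13.28, and none of these 6 differed at the threshold, although *Cd3e* did after median centring and with an intensity trend (adjusted p from 0.00519). The 3′ minus 5′ signal of the β-actin control probe sets, a measure of RNA quality, was 1.48 and 1.49 on the CD4+ TEM arrays and 0.77 and 0.84 on the CD8+ TEM arrays. For Gapdh it was 1.19 and 1.31 against 0.91 and 0.93. Both controls thus moved with the comparison, and their part in the differences was not tested. On the naive arrays β-actin gave 1.46 and 1.24 (CD4+) against 2.13 and 1.73 (CD8+). Gapdh gave 2.49 and 2.42 against 2.75 and 2.67 there. Between the naive subsets both controls thus moved the other way. Their part in the changes from the naive to the day 25 difference was not tested either. *Xist*, a female-specific transcript, read 3.97 on the second naive CD8+ array and at least 11.94 on the other 9. The naive CD8+ group thus joined 1 array with low and 1 with high signal for this marker of sex. Levels are given on the log2 RMA scale, on which a difference of 1 is a 2-fold change, and levels of different genes are not compared because each probe set binds with its own strength.

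The genes of the co-receptors matched the labels. *Cd4*, the co-receptor for MHC class II, read 11.65 and 11.82 in CD4+ TEM cells and 6.51 and 6.89 in CD8+ TEM cells. *Cd8b1*, the β chain of the co-receptor for MHC class I, read 5.25 and 4.94 in CD4+ TEM cells and 10.99 and 10.98 in CD8+ TEM cells. The groups were far apart for both genes, with differences of 5.03 ± 0.17 (SE; adjusted p = 1.53e-05) and -5.89 ± 0.23 (adjusted p = 2.72e-05, limma). *Cd8a*, the α chain, read 7.67 and 8.17 in CD4+ TEM cells and 12.92 and 12.81 in CD8+ TEM cells (difference -4.94 ± 0.41, adjusted p = 0.000756). In naive CD4+ cells the same probe set read 5.16 and 4.99, so that the *Cd8a* gap of day 25 was smaller than the naive gap by 2.90 ± 0.57 (SE; adjusted p = 0.0159), whereas the *Cd8b1* gap differed by -0.08 (adjusted p = 0.912). Other *Cd8a* probe sets read between 4.19 and 6.35 in CD4+ TEM cells and between 2.52 and 4.83 in naive CD4+ cells, each below its CD8+ TEM mean. *Cd4* in turn read 4.30 and 4.10 in naive CD8+ cells, under both CD8+ TEM arrays, and its gap narrowed by 2.65 (adjusted p = 0.000822), although a dimmer *Cd4* probe set averaged 4.03 in CD8+ TEM and 3.89 in naive CD8+ cells. In bulk RNA, fewer cells of a kind and less RNA per cell cannot be told apart. The gate marker *Cd44* read 11.002 and 10.975 in CD4+ TEM cells and 11.44 and 11.43 in CD8+ TEM cells (adjusted p = 0.224).

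Of 8 measured genes of the CD4 lineage list, 5 (62.5%) were higher in CD4+ TEM cells and none lower, with a median difference of 1.06 against -0.03 over all genes. They were *Cd4*, *Tox* (1.97), *Gata3* (1.79), *Satb1* (1.21) and *Zbtb7b* (0.91), the last encoding ThPOK, which commits thymocytes to the CD4 lineage. *Lef1*, *Myb* and *Cd40lg* differed by 0.07, -0.38 and 0.15 and did not pass the threshold, which *Myb* passed with the variation filter (adjusted p = 0.04). Of 7 genes of the CD8 lineage list, *Cd8a* and *Cd8b1* were called and the other 5 were not. *Runx3*, which commits cells to the CD8 lineage, read 10.39 and 10.41 in CD4+ TEM cells and 10.19 and 10.31 in CD8+ TEM cells, a difference of 0.15 with a 95% interval from -0.23 to 0.53. In naive cells *Runx3* had been lower in the CD4+ subset by 1.04 (adjusted p = 0.00363). *Itgae*, the αE integrin chain CD103, gave 10.25 and 10.57 against 11.35 and 11.21, *Crtam* differed by -0.81, *Cbfb* by 0.02 and *Bcl11b* by 0.32, none of them past the threshold. *Itgae* and *Crtam* passed it without either CD4+ memory array (adjusted p = 0.021 and 0.0187), *Crtam* also in a fit of the 4 TEM arrays alone, and *Bcl11b* after median centring (adjusted p = 0.0473). *Tox* lost its call with a replicate block and in fits without any one of the 4 TEM or 4 naive arrays (adjusted p up to 0.213 over all alternatives), *Zbtb7b* without any one TEM array (up to 0.141), *Satb1* without the second CD4+ TEM array or either CD8+ TEM array (up to 0.0625), and *Gata3* without the second CD4+ or the first CD8+ TEM array and in a fit of the 4 TEM arrays alone (up to 0.0635).

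Cytokine genes gave the largest difference of all, and most of the called ones were on the CD4+ side. *Il9*, a cytokine that acts on mast cells and epithelia, read 10.75 and 10.81 in CD4+ TEM cells against 3.99 and 3.16 in CD8+ TEM cells. The naive arrays of both subsets and the CD4+ memory arrays lay between 3.20 and 3.68, so that *Il9* was high on the 2 CD4+ TEM arrays alone of the 10. The difference was 7.20 ± 0.25 (adjusted p = 1.54e-05). No fold is given for it or for other genes whose lower group read at or near naive levels, since the arrays carry no detection call. Next came the type 2 cytokines *Il13*, at 8.93 and 8.61 against 5.51 and 5.65 (difference 3.19 ± 0.23, adjusted p = 0.000376), and *Il5*, at 5.96 and 5.29 against 3.51 and 3.45 (2.15 ± 0.21, adjusted p = 0.00191). Again no CD8+ TEM array reached a CD4+ TEM array. *Csf2*, which encodes GM-CSF, was high in both subsets compared with naive cells and read 10.13 and 9.98 against 8.13 and 7.88 (2.05 ± 0.46, adjusted p = 0.0427), a call lost without any one TEM or naive CD8+ array and with a replicate block (adjusted p up to 0.233). *Il4* pointed the same way at 6.48 and 6.88 against 4.75 and 5.19 but missed the threshold (1.71 ± 0.47, adjusted p = 0.0764), which it passed in 5 of 19 alternatives (adjusted p from 0.0244), among them a fit of the 4 TEM arrays alone and median centring.

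Of 24 measured cytokines, those 4 were higher in CD4+ TEM cells, *Il24*, a member of the IL-10 family, was higher in CD8+ TEM cells by 1.05, and 19 were not called. The share called was 20.8% against 5.72% of all genes, and the median over the list was 0.19. *Ifng*, the signature cytokine of killer and type 1 helper cells, read 10.22 and 10.06 in CD4+ TEM cells and 11.12 and 11.12 in CD8+ TEM cells. These arrays did not overlap, but the naive CD8+ arrays of *Ifng* read 7.50 and 3.40 and widened the standard error of the common fit, so that the difference of -0.98 had a 95% interval from -3.38 to 1.42 (adjusted p = 0.692). *Ifng* was called in a fit of the 4 TEM arrays alone and without either naive CD8+ array (adjusted p from 0.0201). *Il24* lost its call after median centring, after a further quantile normalization and without any one TEM array (adjusted p up to 0.176).

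The aryl hydrocarbon receptor gene *Ahr*, a member of the transcription factor list, was higher in CD4+ TEM cells. AHR is a transcription factor that senses small aromatic ligands. *Cyp1b1*, *Cyp1a1* and *Ahrr*, a repressor that feeds back on the receptor, are its textbook targets, of which *Ahrr* and *Cyp1a1* were picked after their values were seen, and no list of its targets was tested. *Ahr* read 9.10 and 9.48 in CD4+ TEM cells and 6.74 and 6.12 in CD8+ TEM cells, where naive CD4+ cells had 5.74 and 5.54 and naive CD8+ cells 6.70 and 5.77. The CD4+ TEM arrays therefore stood apart while the CD8+ TEM arrays stayed near the naive CD8+ ones, and the difference was 2.86 ± 0.33 (adjusted p = 0.00369). *Cyp1b1* read 8.76 and 8.98 against 3.59 and 3.51 (5.32 ± 0.30, adjusted p = 0.000124), and the naive arrays lay between 2.69 and 3.05. *Ahrr* was raised in both subsets, at 8.78 and 9.07 against 6.39 and 6.97, with a difference of 2.24 ± 0.46 (adjusted p = 0.0316). *Cyp1a1* stayed low, at 5.67 and 4.696 against 3.36 and 3.47 (1.77 ± 0.40, adjusted p = 0.0427). The calls of *Ahr* and *Cyp1b1* held in all alternatives, while those of *Ahrr* and *Cyp1a1* were lost without any one TEM or naive CD4+ array (adjusted p up to 0.186 and 0.202), and that of *Cyp1a1* also without either naive CD8+ array, with a replicate block and in a fit of the 4 TEM arrays alone.

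The stretches before the start sites of *Cyp1b1*, *Ahrr* and *Il9* are shown because these genes were called higher in CD4+ TEM cells, although *Ahrr* was raised in both subsets. Each has 250 bases from RefSeq (build GRCm38.p6), written 5′ to 3′ on the gene's minus strand. Capitals mark matches on either strand to any of GCGTG (the core of the AHR response element), GAAA and GAAA with 2 bases of any kind between them (an interferon response element), GGGA and CC with 4 bases between them (a κB-like site) and TGANTCA (an AP-1 site). *Cyp1b1* lies at chr17:79715062-79715311, *Ahrr* at chr13:74292332-74292581 and *Il9* at chr13:56482258-56482507.
Cyp1b1: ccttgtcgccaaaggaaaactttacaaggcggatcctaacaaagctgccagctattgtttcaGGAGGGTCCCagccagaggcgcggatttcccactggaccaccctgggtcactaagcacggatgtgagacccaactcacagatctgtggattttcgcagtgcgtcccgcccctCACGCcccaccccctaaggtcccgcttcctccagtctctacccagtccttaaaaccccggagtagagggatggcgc
Ahrr: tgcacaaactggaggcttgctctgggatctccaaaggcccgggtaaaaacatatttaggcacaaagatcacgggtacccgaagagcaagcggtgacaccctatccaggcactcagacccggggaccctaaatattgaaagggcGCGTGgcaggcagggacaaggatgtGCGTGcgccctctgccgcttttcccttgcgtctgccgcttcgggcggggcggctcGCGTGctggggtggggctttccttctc
Il9: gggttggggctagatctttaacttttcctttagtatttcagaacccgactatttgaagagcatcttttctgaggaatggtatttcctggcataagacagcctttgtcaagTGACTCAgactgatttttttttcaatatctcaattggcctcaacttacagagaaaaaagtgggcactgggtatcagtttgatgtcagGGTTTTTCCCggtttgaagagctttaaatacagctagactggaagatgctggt
*Ahrr* holds GCGTG 3 times, *Cyp1b1* holds it 1 time together with 1 κB-like match, and *Il9* holds none but has 1 κB-like and 1 AP-1 match. Over 32851 promoters of this length, 28.2% hold GCGTG, 17.6% the κB-like letters, 6.75% the AP-1 letters and 2.98% the interferon response letters. A match describes these letters in this window and is not a measured binding site.

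The remaining genes among the 12 with the largest difference towards CD4+ TEM cells were of mixed function. *Penk*, the precursor of enkephalin peptides, read 11.81 and 11.74 against 8.05 and 7.84 (3.83 ± 0.16, adjusted p = 2.72e-05). *Pdpn*, the membrane glycoprotein podoplanin, read 8.12 and 8.14 against 3.48 and 3.21 (4.79 ± 0.19, adjusted p = 2.72e-05). *Pdpn* was thus high on the CD4+ TEM arrays alone, while *Penk* was above its naive levels of 3.31 to 4.25 in both subsets. *Ccl1*, the ligand of the receptor CCR8, read 11.59 and 11.23 against 7.71 and 8.04 (3.54 ± 0.38, adjusted p = 0.00295). *Ccr8* itself was the one called chemokine receptor higher in CD4+ TEM cells, at 5.83 and 5.93 against 2.46 and 2.55 (3.38 ± 0.18, adjusted p = 0.000101). *Itih5* (4.25), *Myo6* (3.54) and *Nrp1* (3.44), the last a co-receptor for semaphorins, were carried over from the naive stage, where they had been higher in CD4+ cells by 3.05, 5.12 and 2.79. *Col6a1*, a collagen chain, differed by 3.47, *Prag1* by 3.57 and *Oasl2*, an interferon-induced gene, by 3.57. A second *Prag1* probe set differed by -0.26.

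**Figure D2:**
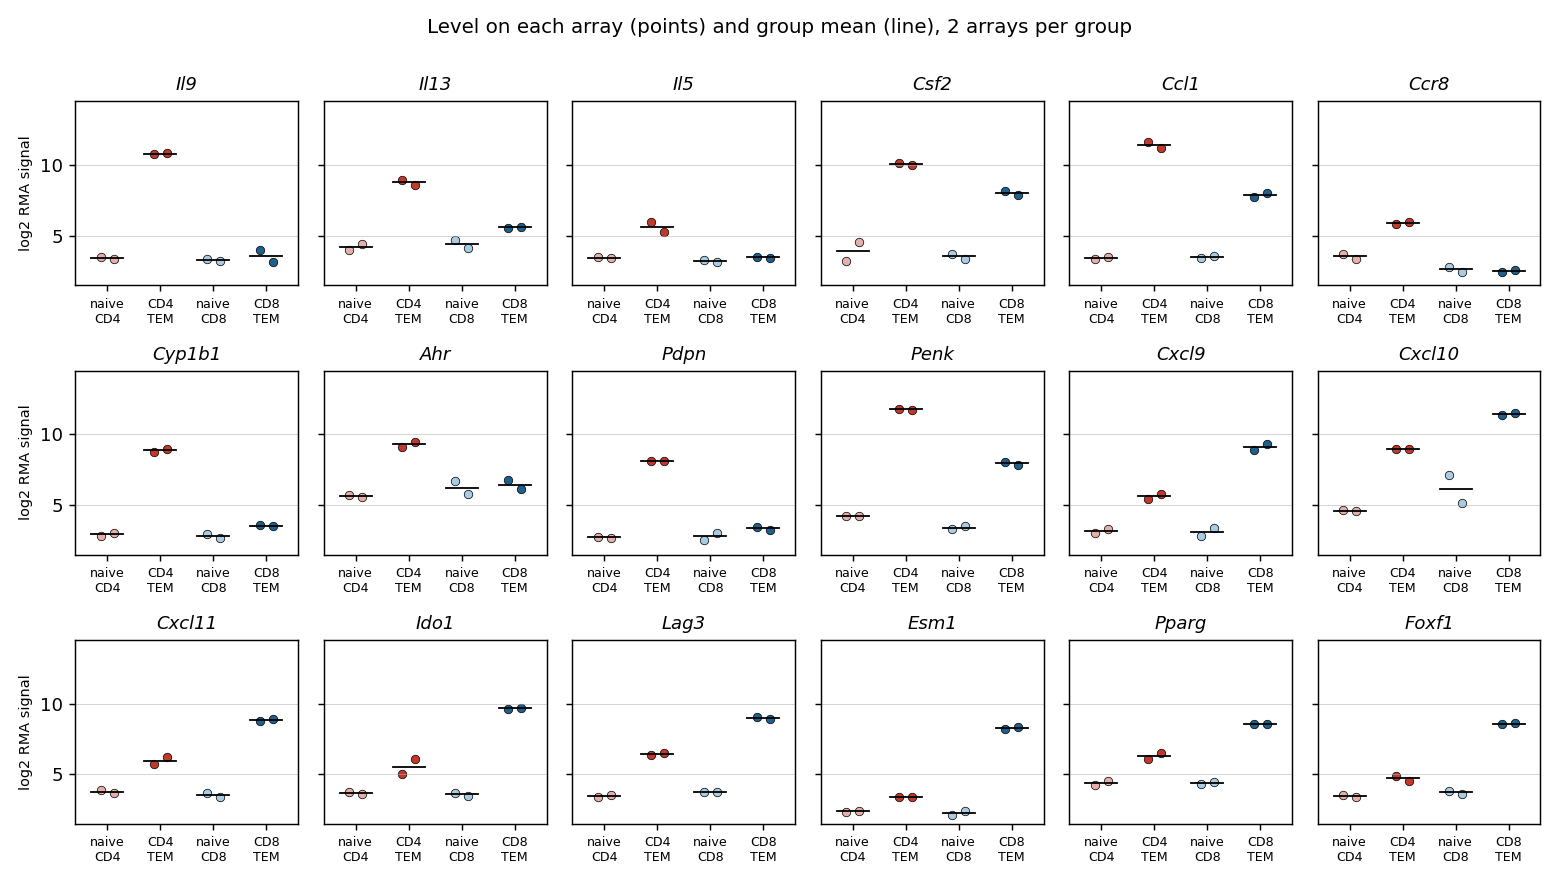
Level of 18 genes on each of the 8 naive and TEM arrays (points; log2 RMA signal on the y axis) with the mean of the 2 arrays of a group (line). *Il9*, *Cyp1b1* and *Pdpn* are high on the 2 CD4+ TEM arrays, and *Esm1*, *Foxf1* and *Ido1* on the 2 CD8+ TEM arrays.

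Called transcription factors lay on both sides. Of 53 measured helper and effector factors, 16 were higher in CD4+ TEM cells and 4 in CD8+ TEM cells, which is 37.7% of the list against 5.72% of all genes, with a median difference of 0.36. *Maf*, an inducer of IL-4 and IL-10, read 8.69 and 8.86 against 5.63 and 6.30 (2.80 ± 0.39, adjusted p = 0.0073). *Bach2*, a repressor that restrains effector differentiation, read 10.51 and 10.82 against 8.04 and 7.90 (2.69 ± 0.15, adjusted p = 0.000125). Both subsets read lower for *Bach2* than their naive cells, and the CD8+ TEM arrays were the lowest of the 10. *Bcl6*, a repressor that opposes effector programs, showed the same order at 7.47 and 7.46 against 5.75 and 5.05 (2.06 ± 0.21, adjusted p = 0.00247), from naive levels of 9.74 to 10.01. *Klf3* (2.06), *Runx1* (1.62) and *Foxo1* (1.15), a factor of naive and memory cells, were also higher in CD4+ TEM cells. *Hic1* was above its naive levels in both, at 8.87 and 8.73 against 6.35 and 6.16 (2.55 ± 0.24).

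*Eomes*, a T-box factor of memory and killer cells, changed sides. In naive cells it had read 5.80 and 5.14 in the CD4+ and 8.70 and 9.02 in the CD8+ subset. On day 25 it read 7.94 and 8.70 in CD4+ TEM cells and 6.23 and 6.43 in CD8+ TEM cells. The day 25 difference was 1.99 ± 0.32 (adjusted p = 0.0145), the naive difference -3.39 (adjusted p = 0.000383), and the difference between them 5.38 (adjusted p = 0.000754). *Tbx21*, which encodes T-bet, read 7.47 and 7.56 against 8.65 and 8.59 and was not called (-1.11, 95% interval -2.04 to -0.18, adjusted p = 0.165), although it was in 3 alternatives, a fit of the 4 TEM arrays alone and those without either naive CD4+ array (adjusted p from 0.0192). *Prdm1* (Blimp-1), *Irf4* and *Id2* differed by -0.56, -0.48 and 0.12, with 95% intervals from -1.13 to 0.01, from -2.08 to 1.12 and from -0.27 to 0.52.

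The 4 factors higher in CD8+ TEM cells were *Pparg*, *Batf3*, *Zbtb32* and *Batf*. *Pparg*, a nuclear receptor of lipid metabolism, read 6.07 and 6.51 in CD4+ TEM cells and 8.53 and 8.55 in CD8+ TEM cells (-2.25 ± 0.19, adjusted p = 0.000864), from 4.26 to 4.52 in naive cells. *Batf3* read 7.68 and 7.41 against 8.87 and 8.98 (-1.38 ± 0.25, adjusted p = 0.0196). *Zbtb32* differed by -1.08 and *Batf* by -0.97. Among the factors named here, calls were lost for *Maf* on the mean of its probe sets and without the second CD4+ or the first CD8+ TEM array (adjusted p up to 0.0623), for *Eomes* without the second CD4+ or either CD8+ TEM array (up to 0.102), for *Foxo1* and *Batf3* without any one TEM array (up to 0.0964 and 0.14), for *Runx1* without the second CD8+ TEM array (up to 0.0665), for *Batf* without the first CD4+ or either CD8+ TEM array, in a fit of the TEM arrays alone and after median centring (up to 0.178), and for *Zbtb32* in 14 of 19 alternatives (up to 0.903). Of 6 *Maf* probe sets, 4 shared the sign.

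Of 18 measured chemokines, 3 were higher in CD8+ TEM cells, *Cxcl9*, *Cxcl10* and *Cxcl11*, which attract T cells that bear the receptor CXCR3, and *Ccl1* was higher in CD4+ TEM cells, so that 22.2% of the list was called against 5.72% of all genes. *Cxcl9* read 5.44 and 5.80 in CD4+ TEM cells and 8.92 and 9.29 in CD8+ TEM cells (-3.48 ± 0.30, adjusted p = 0.000864). *Cxcl11* read 5.70 and 6.22 against 8.79 and 8.88 (-2.87 ± 0.21, adjusted p = 0.000421), and *Cxcl10* 8.95 and 8.95 against 11.39 and 11.47 (-2.49 ± 0.52, adjusted p = 0.0334). For all 3 genes both TEM groups lay above the naive CD4+ arrays and the CD8+ TEM arrays were the highest of the 10. The call of *Cxcl10* was lost without any one TEM or naive CD4+ array (adjusted p up to 0.188), and the naive CD8+ arrays of this gene read 7.13 and 5.15. The other 14 chemokines were not called, among them *Ccl5* (-0.45, 95% interval -1.41 to 0.50). The median of the list was -0.22.

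The stretches before *Cxcl9* and *Cxcl10* are shown for the same letters because both genes are known to respond to interferon-γ and NF-κB. They lie at chr5:92328080-92328329 and chr5:92348890-92349139, both on the minus strand.
Cxcl9: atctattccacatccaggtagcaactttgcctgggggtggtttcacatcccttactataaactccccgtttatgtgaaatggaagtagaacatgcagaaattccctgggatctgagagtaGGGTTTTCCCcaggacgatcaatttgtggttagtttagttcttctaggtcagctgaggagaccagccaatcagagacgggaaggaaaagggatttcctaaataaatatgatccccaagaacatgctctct
Cxcl10: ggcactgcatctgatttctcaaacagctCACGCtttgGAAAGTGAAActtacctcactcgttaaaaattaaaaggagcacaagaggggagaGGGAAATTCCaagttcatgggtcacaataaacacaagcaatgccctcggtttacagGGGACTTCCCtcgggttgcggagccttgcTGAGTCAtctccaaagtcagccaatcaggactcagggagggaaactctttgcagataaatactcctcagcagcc
*Cxcl10* holds 1 match to the interferon response letters, 2 κB-like matches, 1 AP-1 match and 1 GCGTG, and *Cxcl9* holds 1 κB-like match only.

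*Ido1* and *Ciita*, which interferon-γ is also known to induce, read higher in CD8+ TEM cells too. Interferon-stimulated genes, given further below, were called in both directions. *Ido1*, which breaks down tryptophan, read 4.99 and 6.06 in CD4+ TEM cells and 9.62 and 9.71 in CD8+ TEM cells (-4.14 ± 0.31, adjusted p = 0.000435). *Ciita*, the master switch of MHC class II genes, read 4.34 and 4.33 against 6.47 and 5.91 (-1.85 ± 0.23, adjusted p = 0.00455), a call lost on probe sets that match a single transcript by their suffix (-0.93, adjusted p = 0.157). All 9 measured genes of the MHC class II list read lower in CD4+ TEM cells, by 0.42 to 1.87, but *Ciita* was the only one called. *H2-Eb2*, which is outside that list, read 5.14 and 4.79 against 7.93 and 7.84 (-2.92 ± 0.23, adjusted p = 0.000604). The summed signal of the list was 14.58 and 14.70 in CD4+ TEM cells and 15.49 and 15.55 in CD8+ TEM cells, against 11.08 to 12.26 in naive cells. B cells express these genes strongly, B lymphoma cells had been in the culture, and the arrays were made from T cells sorted by FACS. The summed signal of 14 B cell genes was 11.80 and 11.91 in CD4+ TEM cells and 11.82 and 12.05 in CD8+ TEM cells, none of them was called, and *Ms4a1*, *Cd79a*, *Cd22*, *Blk*, *Bank1*, *Pax5* and *Fcrla* read under 6 on all 4 TEM arrays. *Cd79b* read 8.77 and 8.41 against 9.60 and 9.58 (-1.002, adjusted p = 0.111; 0.0408 in a fit of the 4 TEM arrays alone), and *Vpreb3* 7.90 and 8.18 against 8.11 and 8.16. The other B cell genes that read at least 6 on all 4 TEM arrays were *Ebf1*, at 10.56 and 10.32 against 10.53 and 10.76, *Ighm*, at 9.60 and 9.99 against 9.32 and 9.46, and *Pou2af1*, at 9.14 and 8.66 against 7.86 and 8.66. Other *Ebf1* probe sets differed by -1.02, -1.56, -0.67 and -0.24, the last at a low level. *Ebf1*, a B lineage factor, had read 2.93 to 5.56 in naive cells, whereas *Ighm* had read higher there, at 11.30 to 12.60. The sum over B cell genes thus joined genes that read higher and genes that read lower than in naive cells. The part of B cell RNA in the class II difference was not tested.

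Interferon-stimulated genes split in both directions. Of 34 measured, 5 were higher in CD4+ TEM cells and 3 in CD8+ TEM cells, 23.5% of the list, with a median of 0.19. *Oasl2* read 6.69 and 7.72 against 3.53 and 3.75 (3.57 ± 0.32, adjusted p = 0.00113), *Rtp4* 8.13 and 8.36 against 6.19 and 6.35 (1.97 ± 0.21, adjusted p = 0.00259) and the RNA sensor gene *Ddx58* 9.16 and 9.12 against 8.01 and 7.49 (1.38 ± 0.18, adjusted p = 0.00641). For each of these genes the CD8+ TEM arrays were the lowest of the 8 naive and TEM arrays. A second *Rtp4* probe set differed with the opposite sign. Higher in CD8+ TEM cells were *Mx1*, at 3.71 and 3.52 against 5.66 and 4.69 (-1.56 ± 0.28), *Bst2*, at 9.58 and 9.39 against 10.59 and 10.81 (-1.21 ± 0.17), and *Gbp6* (-0.81 ± 0.19). These 3 calls were less stable. *Mx1* lost its call in the TEM arrays alone and without either CD4+ or the first CD8+ TEM array (adjusted p up to 0.122), *Bst2* without the second array of either TEM group (up to 0.0889) and *Gbp6* without any one TEM or naive CD8+ array, with a replicate block, with the variation filter and after median centring (up to 0.227).

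Most of the genes with the largest differences towards CD8+ TEM cells were nearly silent in naive cells of both subsets. *Esm1*, a secreted proteoglycan known from endothelium, read 3.38 and 3.37 in CD4+ TEM cells and 8.22 and 8.32 in CD8+ TEM cells (-4.89 ± 0.15, adjusted p = 1.42e-05), and the naive arrays lay between 2.12 and 2.40. *Foxf1*, a forkhead factor of mesenchyme, read 4.88 and 4.54 against 8.52 and 8.59 (-3.85 ± 0.17, adjusted p = 4.07e-05). *Sval1* read 3.29 and 2.36 against 7.89 and 8.43 (-5.34 ± 0.35). Only the CD8+ TEM arrays were high for these genes. *Calhm5* (-4.06), *Aldh1a1*, an enzyme of retinoic acid synthesis (-3.64), *Ptprg*, a receptor phosphatase (-3.49), and *Cdh17*, a cadherin of gut epithelium (-3.47), followed, with naive arrays of all 4 between 2.60 and 3.29. The *Ptprg* value came from 1 of 4 probe sets; on probe sets with no mark for matching several transcripts the difference was -0.22 (adjusted p = 0.697). *Hacd1* (-3.83) had already been higher in naive CD8+ cells, by 3.17. Of the 93 genes at least 4-fold higher in CD8+ TEM cells, 82 (88.2%) had both naive means under 6, a low level, compared with 29 (50.9%) of the 57 at least 4-fold higher in CD4+ TEM cells and 50.8% of all genes.

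In the granzyme family 4 of 10 genes differed, 40% of the list against 5.72% of all genes. *Gzma*, *Gzmb* and *Gzmc*, proteases that enter target cells, were high in both subsets. *Gzmb* read 13.06 and 13.07 in CD4+ TEM cells and 12.75 and 12.72 in CD8+ TEM cells (0.33, 95% interval -0.20 to 0.86), *Gzma* 12.54 and 12.24 against 11.73 and 11.65 (0.70, -1.31 to 2.71) and *Gzmc* 13.62 and 13.58 against 12.91 and 12.82 (0.73, -0.16 to 1.63). None was called, although for each the CD4+ TEM arrays were the higher ones. *Gzma* was called without either naive CD8+ array (adjusted p = 0.045), and *Gzmc* there and in a fit of the 4 TEM arrays alone (adjusted p from 0.0374). The interval for *Gzma* was wide because its naive CD8+ arrays read 3.20 and 6.63. The neighbouring granzymes *Gzmd*, *Gzme*, *Gzmf* and *Gzmg*, which lie with *Gzmb* and *Gzmc* in a single gene cluster, were all higher in CD4+ TEM cells. *Gzmg* read 10.50 and 9.91 against 7.38 and 7.04 (2.99 ± 0.27, adjusted p = 0.00108), *Gzmf* 9.28 and 9.14 against 6.57 and 6.24 (2.80 ± 0.33, adjusted p = 0.00396), *Gzmd* 8.23 and 7.995 against 6.11 and 4.99 (2.56 ± 0.34, adjusted p = 0.00641) and *Gzme* 9.37 and 9.24 against 7.66 and 7.40 (1.77 ± 0.20, adjusted p = 0.00337). These 4 calls held in all alternatives, but the 4 genes are close in sequence and probe sets can share signal between them. *Gzmk*, *Gzmm* and *Gzmn* read under 6 on all TEM arrays, and *Gzmk* was called without the second CD8+ TEM array only (adjusted p = 0.0273).

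**Figure D3:**
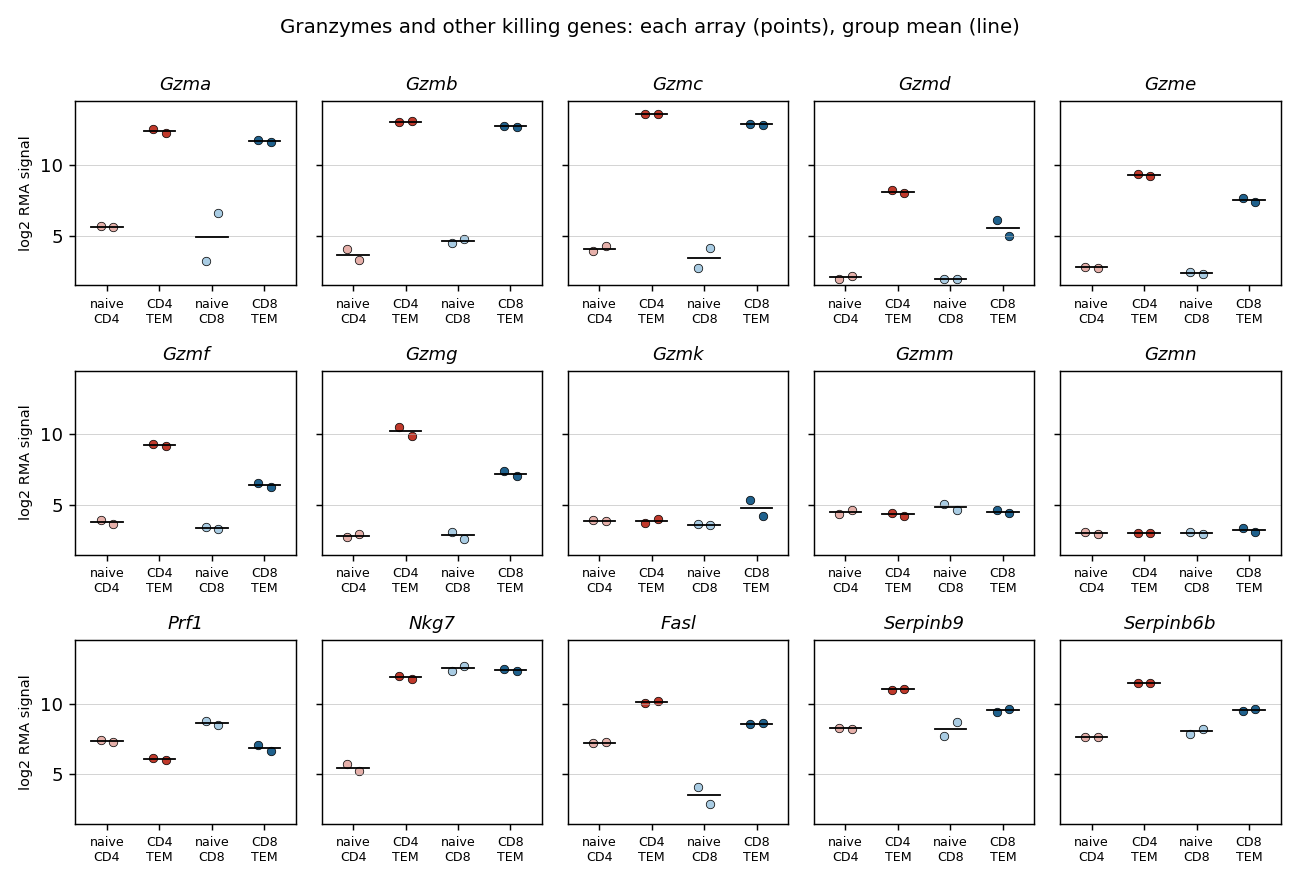
Level of the 10 granzymes and 5 other genes of killing on each of the 8 naive and TEM arrays (points; log2 RMA signal on the y axis), with group means (lines). *Gzmb* and *Nkg7* are high in both TEM groups, whereas *Gzmd* to *Gzmg* are higher on the 2 CD4+ TEM arrays than on the 2 CD8+ TEM arrays.

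Perforin and most of the other granule genes did not share this pattern. *Prf1*, the pore-forming perforin, read 6.17 and 6.04 in CD4+ TEM cells and 7.05 and 6.62 in CD8+ TEM cells (-0.73, 95% interval -1.36 to -0.09, adjusted p = 0.183), under its naive CD8+ levels of 8.75 and 8.51. A second *Prf1* probe set differed by 0.18. *Nkg7*, a granule protein, read 11.94 and 11.74 against 12.42 and 12.30 (-0.52, -1.02 to -0.02, adjusted p = 0.226). Of 21 measured genes for granule content, release and processing, 2 were called, 9.52% against 5.72% of all genes. Both encode protease inhibitors that shield the killer cell. *Serpinb6b* read 11.43 and 11.45 against 9.51 and 9.64 (1.87 ± 0.15, adjusted p = 0.000758), and *Serpinb9* 10.94 and 11.04 against 9.43 and 9.59 (1.48 ± 0.29, adjusted p = 0.0283). Both were thus higher in CD4+ TEM cells. Among death ligands, *Fasl* and *Tnfsf10* pointed the same way. *Fasl* read 10.06 and 10.19 against 8.56 and 8.61 (1.54 ± 0.34, adjusted p = 0.0379) and *Tnfsf10*, which encodes TRAIL, 9.25 and 9.13 against 7.79 and 7.51 (1.54 ± 0.19, adjusted p = 0.00446), while the receptor *Fas* was higher in CD8+ TEM cells (-1.04). *Ltb*, lymphotoxin β, was higher in CD8+ TEM cells (-1.21), and 9 of 12 ligands were not called, so that 25% of this list was called. The calls of *Serpinb9* and *Fasl* were lost on the mean of their probe sets and without any one TEM or naive CD4+ array (adjusted p up to 0.158 and 0.191), and those of *Fas* and *Ltb* without any one TEM array (up to 0.178 and 0.138).

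Among inhibitory receptors 3 of 17 differed, 17.6% against 5.72% of all genes. *Lag3*, which binds MHC class II and dampens T cells, read 6.39 and 6.52 in CD4+ TEM cells and 9.05 and 8.92 in CD8+ TEM cells (-2.53 ± 0.15, adjusted p = 0.00013). *Nt5e*, which encodes CD73 and makes adenosine, was higher in CD4+ TEM cells at 9.98 and 10.35 against 8.36 and 8.18 (1.89 ± 0.20, adjusted p = 0.00254), although naive CD8+ cells had held more of it than naive CD4+ cells by 1.63. *Lair1*, a collagen receptor, was higher in CD4+ TEM cells by 1.76 ± 0.31 (adjusted p = 0.019), a call lost without any one TEM array (up to 0.124). The other 14, the median of the list being 0.15, passed no threshold.

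Of 33 cytokine receptors, 4 were called, all higher in CD4+ TEM cells, 12.1% of the list against 5.72% of all genes. *Il6st*, the signal chain gp130 shared by IL-6 family receptors, read 8.05 and 8.33 against 6.53 and 6.31 (1.77 ± 0.19, adjusted p = 0.00297), whereas naive cells had 10.35 to 11.66. *Tgfbr1*, a TGF-β receptor chain, read 9.51 and 9.57 against 7.94 and 8.05 (1.54 ± 0.18, adjusted p = 0.00369), a call lost on the mean of its 3 probe sets (0.47, adjusted p = 0.111). *Il18rap*, an IL-18 receptor chain, read 9.80 and 9.64 against 8.77 and 8.91 (0.88 ± 0.18, adjusted p = 0.0333), after it had been lower in naive CD4+ than in naive CD8+ cells by 3.06, and lost its call with a replicate block and without any one TEM or naive CD4+ array (up to 0.191). *Il2ra*, the high-affinity chain of the IL-2 receptor, differed by -0.19 (95% interval -0.77 to 0.38). Of 21 chemokine and homing receptors 3 were called (14.3%). *Ccr8* was higher in CD4+ TEM cells, and *Ccr1*, at 7.17 and 7.59 against 9.05 and 9.33 (-1.81 ± 0.31, adjusted p = 0.0173), and *Ccr3*, at most 4.65, were higher in CD8+ TEM cells. *Ccr1* lost its call without any one TEM array (up to 0.131). The medians of these lists were 0.02 and 0.01.

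Of 25 NK cell receptors and adaptors, *Klra5* alone was called, its CD4+ TEM arrays of 3.85 and 5.59 were low and far apart, and the call was lost in a fit of the TEM arrays alone and without either CD8+ TEM array or any naive array (up to 0.19). Of 20 costimulatory receptors, *Cd48* alone was called (-1.13 ± 0.25, adjusted p = 0.0395), and its call was lost without any one TEM or naive CD4+ array, with a replicate block and after median centring (up to 0.231). The shares of 4% and 5%, and of 7.69% for the integrin list, were near the 5.72% of all genes. In the integrin list 2 of 26 were called, *Itgb3* (1.66) higher and *Itgb7* (-0.66) lower in CD4+ TEM cells, the first lost on the mean of its probe sets (adjusted p = 0.085) and the other in 10 of 18 alternatives, any left-out TEM array among them (up to 0.247). Of 31 genes of T cell receptor signalling 9 were called, 29% of the list. *Ubash3a*, a phosphatase that restrains the receptor (1.67), *Malt1* (1.55) and *Rasgrp1* (0.997) were higher in CD4+ TEM cells, and *Lcp2* (-0.81), *Cd6* (-0.80) and *Dgkz* (-0.63) in CD8+ TEM cells. Of these 6, *Malt1* kept its call in all alternatives, and the other 5 lost theirs without at least 1 of the TEM arrays, that of *Dgkz* also with a replicate block (adjusted p up to 0.214). A second *Ubash3a* probe set differed by -0.27, and the calls of *Ubash3a* and *Lcp2* were also lost on the mean of their probe sets. After median centring 9 genes of this list were higher in CD4+ TEM cells and 1 in CD8+ TEM cells, against 6 and 3 on the deposited values.

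**Figure D4:**
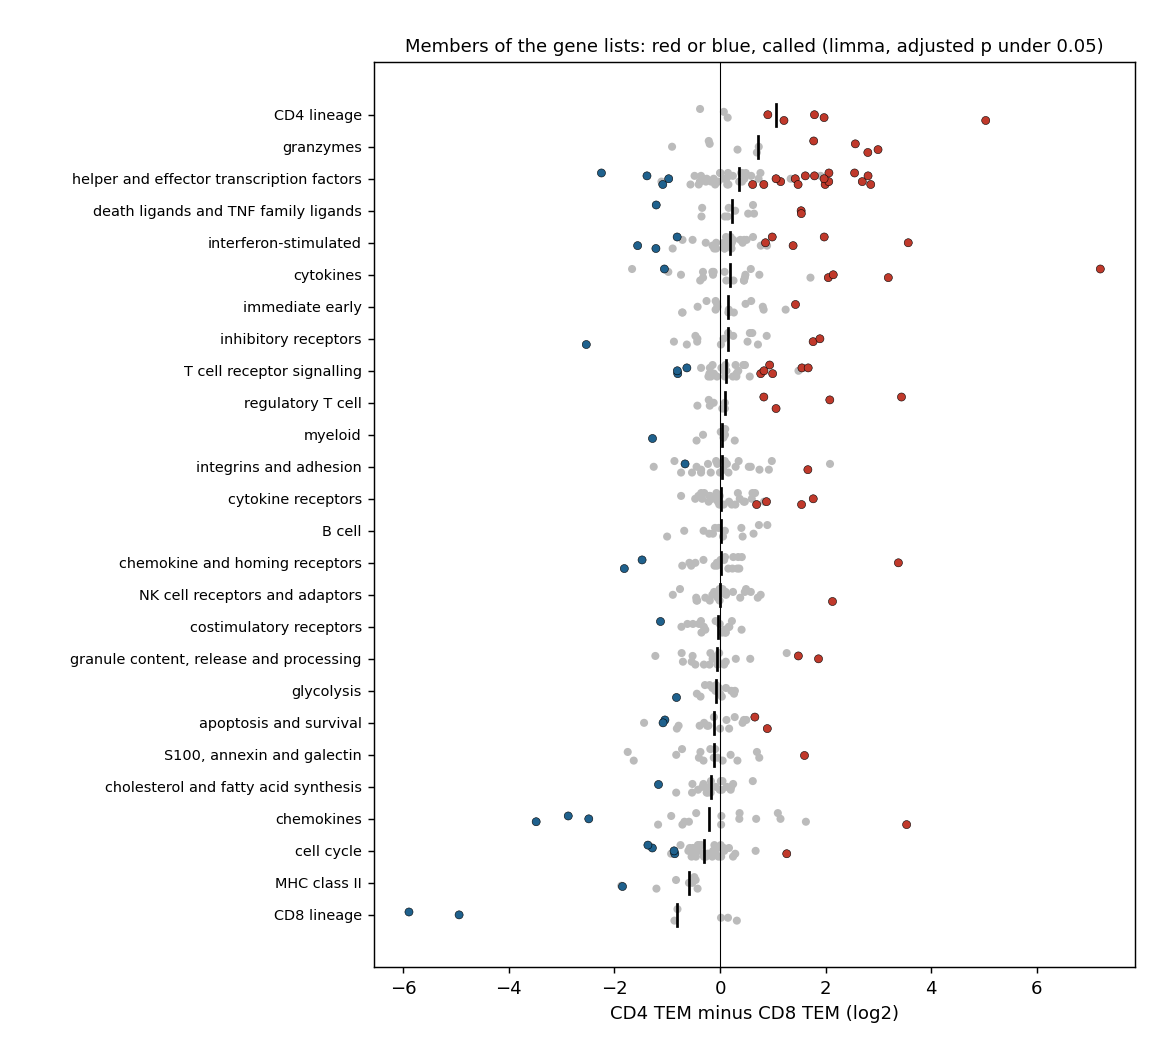
Difference between CD4+ TEM and CD8+ TEM cells (log2, x axis) for each measured member of 26 gene lists, with the median of each list as a black bar. Called members are red (higher in CD4+ TEM cells) or blue (higher in CD8+ TEM cells), others grey; most medians lie near 0, and *Il9* is the point farthest to the right.

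Of 37 cell cycle genes, 4 were higher in CD8+ TEM cells and 1, *Tyms*, in CD4+ TEM cells, 13.5% of the list against 5.72% of all genes, with a median of -0.31. After median centring 2 were called in each direction and the median was -0.09. *Mki67* read 7.37 and 7.24 against 8.53 and 8.82 (-1.37 ± 0.25, adjusted p = 0.021) and *Cdkn2a*, an inhibitor of the cycle, 6.28 and 5.95 against 7.45 and 7.34 (-1.28 ± 0.18, adjusted p = 0.00895). The *Mki67* call was lost without any one TEM array (up to 0.156) and that of *Cdkn2a* without the second CD4+ or either CD8+ TEM array (up to 0.0733). In glycolysis 1 of 15 genes was called, *Pfkl* (-0.83 ± 0.17, adjusted p = 0.0314), whose sign turned to 0.72 (adjusted p = 0.363) on probe sets with no mark for several transcripts. In cholesterol and fatty acid synthesis 1 of 23 was called, *Fdps* (-1.18 ± 0.19, adjusted p = 0.0146), which lost its call without any one TEM array (up to 0.115). The shares of both lists, 6.67% and 4.35%, were near that of all genes. Of 11 regulatory T cell genes, 4 were higher in CD4+ TEM cells, 36.4% against 5.72% of all genes. They included *Nrp1*, *Izumo1r* (2.08) and *Ikzf4* (1.06). In naive cells 6 of the 11 had already been higher in the CD4+ subset, *Izumo1r* by 2.22 and *Ikzf4* by 1.89 among them. The defining factor *Foxp3* read under 6 on all 4 TEM arrays. *Ikzf4* lost its call without any one TEM array (up to 0.122), and *Izumo1r* and *Tyms* lost theirs with a replicate block, in a fit of the 4 TEM arrays alone and without the second CD4+ TEM array, either CD8+ TEM array or either naive CD4+ array, *Izumo1r* also without either naive CD8+ array (up to 0.227 and 0.168).

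Of 19 apoptosis and survival genes 4 were called, 21.1% of the list, in both directions. *Bcl2l11* (0.90) and *Mcl1* (0.66) were higher in CD4+ TEM cells and *Traf2* (-1.08) and *Fas* in CD8+ TEM cells. *Lgals3*, which encodes galectin-3, was the called member among 17 S100, annexin and galectin genes (1.60), and *Egr1* among 17 immediate early genes (1.43). The share called was 5.88% in both lists, against 5.72% of all genes. Each of these calls apart from *Traf2* was lost without any one TEM array, that of *Bcl2l11* also with a replicate block, and that of *Traf2* without the first CD4+ or either CD8+ TEM array (adjusted p up to 0.221). Of 8 myeloid genes *Cd14* alone was called, at 3.06 and 3.26 against 4.43 and 4.47, low on every array, and the call was lost without any one TEM array (up to 0.0912). None of the 3 genes for γδ and NKT cells and neither of the 2 erythroid genes was called, and all 5 read under 6 on the 4 TEM arrays.

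A minority of the genes called on day 25 had differed in the same direction between the naive cells. In naive cells 3733 genes (20.5%) differed between the subsets. Of these, 289 (7.74%) were also called in the same direction on day 25, 90 in the opposite direction, and 3354 were not called. Read from the other side, 120 of the 398 genes higher in CD4+ TEM cells (30.2%) had been called higher in naive CD4+ cells, against 6.65% of all genes, and 64 (16.1%) lower, and 169 of the 643 higher in CD8+ TEM cells (26.3%) had been called higher in naive CD8+ cells, against 13.9% of all genes, and 26 (4.04%) lower. Genes of day 25 had thus been called in the same direction more often than all genes. At least 2-fold differences numbered 2529 in naive cells and 1054 on day 25. Between the 2 naive CD8+ arrays 780 genes were at least 2-fold apart, against 166 between the CD8+ TEM arrays. The part of this spread in the sizes of the naive differences was not tested. Over 9454 genes with a TEM mean of at least 6, the median size of the difference was 0.479 in naive cells and 0.324 on day 25, and the correlation of both differences across these genes was weak (Pearson's r = 0.174, Spearman's rho = 0.163; genes are not independent replicates). The difference of day 25 was tested against the naive difference for every gene, and 2278 genes (12.5%) passed. Without the second naive CD8+ array, the one with little *Xist*, these counts were 3367 and 2460. Without the first or the second naive CD4+ array 2279 and 2109 naive calls were left, with 1356 and 1220 genes whose difference changed, and without any one TEM array the count of changed differences lay between 982 and 1518.

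Some of the largest naive differences were small on day 25. *Nkg7* had read 5.74 and 5.20 in naive CD4+ and 12.30 and 12.69 in naive CD8+ cells, a naive difference of -7.02, and its difference of day 25 was smaller by 6.50 (adjusted p = 0.000186). *Cxcr6*, a homing receptor, had read 4.04 and 3.70 against 9.36 and 10.55 in naive cells and read 10.58 and 10.53 against 10.51 and 10.42 in TEM cells (change 6.18, adjusted p = 0.00137). *Itgae* had differed by -7.50 in naive cells (change 6.64, adjusted p = 0.0116). Differences towards naive CD4+ cells shrank as well: *Il2ra* from 2.58 (change -2.77, adjusted p = 0.00313), *Cd44* from 2.07 (change -2.51, adjusted p = 0.00142) and *Fasl* from 3.71 to 1.54 (change -2.17, adjusted p = 0.0227). Of these genes *Fasl* alone was called on day 25. The reverse, a difference called on day 25 and not in naive cells, held for *Il9* (change 7.04), *Cyp1b1* (5.20), *Pdpn* (4.85), *Esm1* (-5.02) and *Ido1* (-4.24).

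**Figure D5:**
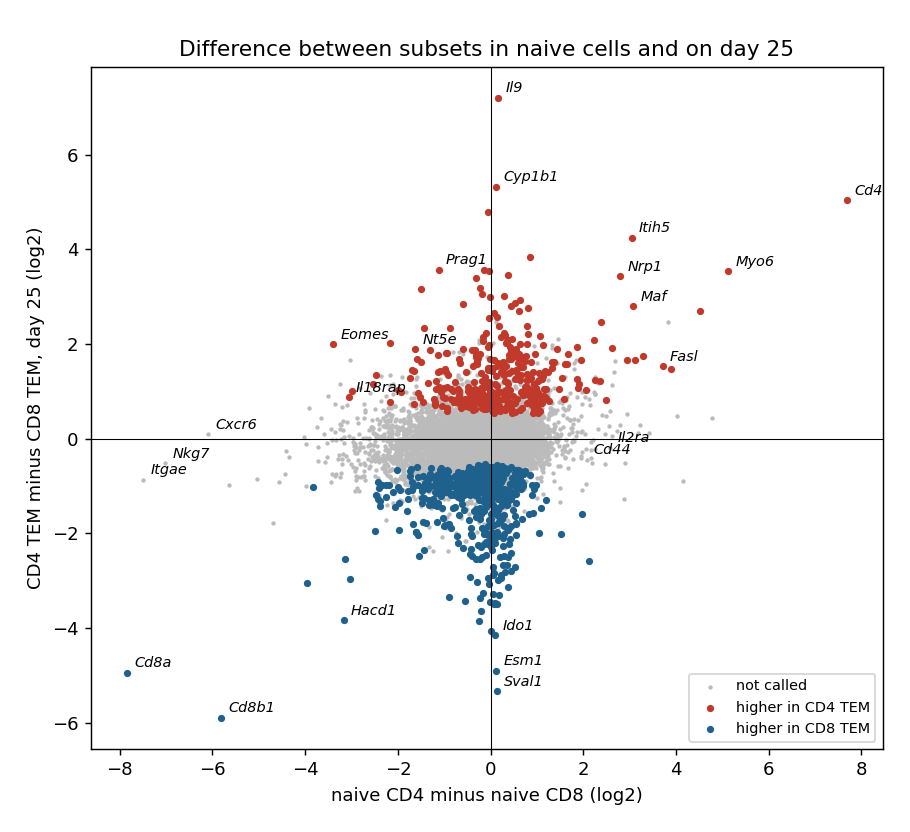
Difference between naive CD4+ and naive CD8+ cells (x axis) and between CD4+ TEM and CD8+ TEM cells of day 25 (y axis), both log2, for 9454 genes with a TEM mean of at least 6. Red and blue genes were called on day 25; *Nkg7*, *Cxcr6* and *Itgae* lie far to the left at a day 25 difference near 0, and *Il9* and *Cyp1b1* high above a naive difference near 0.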

How the data were processed

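Gene expression was measured on 10 Affymetrix mouse expression arrays, 2 for each of 5 groups taken from the sample titles. The authors normalized the arrays by RMA in BRB-ArrayTools (version not given in the sources used here), and deposited log2 values between 1.68 and 14.86, which were not mean-centred. No raw intensities were used. RMA compresses differences of dim probe sets, and with 2 arrays a group the number of arrays limits the precision.

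Of 45101 probe sets, 64 were controls. Symbols came from the platform annotation and were updated through gene identifiers (34741 probe sets). Probe sets with several symbols (932) or none here (9160) were left out. For each of the 18193 genes left, the probe set brightest on average over the 10 arrays was used. One marker of the sort gate is not reported here.

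The 10 arrays entered 1 linear model with a mean for each group in limma 3.58.1 (R 4.3.3; 5 residual and 2.96 prior degrees of freedom), variances were moderated by eBayes, and p-values were adjusted after Benjamini-Hochberg over all genes. A call is an adjusted p under 0.05, errors are standard errors of the fit, and intervals are 95% intervals of the same fit. The naive comparison and the difference between the 2 comparisons were contrasts of the same model. The fit was tested on simulated data. Figures were drawn with matplotlib 3.10.9. Differences are CD4+ TEM minus CD8+ TEM.

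Members and the 28 gene lists were chosen with earlier results of these data known. Named genes are the 12 largest called differences in each direction with arrays that do not overlap and a mean of at least 6, up to 3 called members of each list in each direction (or the member with the largest difference), all CD4 lineage, CD8 lineage and granzyme genes, and the co-receptor and gate genes. *Csf2*, *Il4*, *Ifng*, *Ahrr*, *Cyp1a1*, *Hic1*, *Bcl6*, *Klf3*, *Runx1*, *Foxo1*, *Batf*, *Eomes*, *Tbx21*, *Prdm1*, *Irf4*, *Id2*, *Prf1*, *Nkg7*, *Cxcr6*, *Ccl5*, *Il2ra*, *H2-Eb2*, *Cd79b*, *Vpreb3*, *Ebf1*, *Ighm*, *Pou2af1* and *Xist* were chosen after their values were seen. Alternatives changed the samples, the replicate block, the probe sets, the filter on low or stable genes, the scaling, the moderation and the fold limit, and left out each array in turn. A group left with 1 array was assumed to vary like the others.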

Additional observations from a re-analysis of the deposited data

Results flagged for a closer look

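For 74 of the 144 genes described, the gap between the subsets on day 25 differed from the gap between the naive cells (limma, adjusted p under 0.05, against 12.5% of all genes). The genes were described in part because of their day 25 difference, so this share is no result about them. The change is the day 25 difference minus the naive difference on the log2 scale, and each value rests on 2 arrays a group. It was positive, that is towards CD4+ TEM cells, for 43 genes. The largest were those of *Il9* (7.04), *Itgae* (6.64), *Nkg7* (6.50), *Cxcr6* (6.18), *Eomes* (5.38), *Cyp1b1* (5.20), *Pdpn* (4.85), *Prag1* (4.69), *Il18rap* (3.95), *Oasl2* (3.71) and *Ccl1* (3.56). Smaller changes were seen for *Nt5e* (3.52), *Ahr* (3.45), *Il13* (3.41), *Col6a1* (3.09), *Gzmg* (3.002), *Penk* (2.98), *Cd79b* (2.97), *Il6st* (2.90), *Cd8a* (2.90), *Ccl5* (2.63) and *Hic1* (2.58). They were followed by *Ccr8* (2.45), *Gzmd* (2.42), *Gzmf* (2.37), *Mx1* (2.30), *Serpinb6b* (2.28), *Bcl6* (2.23), *Bach2* (2.08), *Rtp4* (1.9995), *Crtam* (1.99), *Il5* (1.91) and *Klf3* (1.71). The smallest positive changes called were those of *Ddx58* (1.59), *Tgfbr1* (1.405), *Gzme* (1.38), *Malt1* (1.35), *Gzmb* (1.29), *Rasgrp1* (1.27), *Tnfsf10* (1.27), *Runx3* (1.19), *Foxo1* (1.05) and *Satb1* (0.90).

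The change was negative, that is towards CD8+ TEM cells, for 31 genes. The largest in size were those of *Sval1* (-5.46), *Esm1* (-5.02), *Ido1* (-4.24), *Calhm5* (-4.07), *Ptprg* (-3.63), *Foxf1* (-3.59), *Cdh17* (-3.57), *Cxcl9* (-3.56), *Aldh1a1* (-3.43), *Cxcl11* (-3.10) and *Il2ra* (-2.77). Next came *Cd4* (-2.65), *Cd44* (-2.51), *H2-Eb2* (-2.49), *Pparg* (-2.25), *Lag3* (-2.22), *Fasl* (-2.17), *Ciita* (-2.14), *Fdps* (-2.07), *Il24* (-1.98), *Ccr1* (-1.88) and *Cdkn2a* (-1.71). The smallest in size were those of *Batf3* (-1.63), *Cd14* (-1.47), *Ccr3* (-1.43), *Bst2* (-1.38), *Ltb* (-1.32), *Itgb3* (-1.27), *Zbtb32* (-1.27), *Cd6* (-0.90) and *Cd40lg* (-0.87). Among the genes with a positive change, *Nkg7*, *Cxcr6*, *Itgae*, *Ccl5*, *Crtam*, *Cd8a*, *Cd79b*, *Mx1*, *Gzmb* and *Runx3* had been lower in naive CD4+ cells and were not called higher in CD4+ TEM cells on day 25.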

How the results depend on the processing

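On the deposited values 398 genes were higher in CD4+ TEM and 643 in CD8+ TEM cells. After each array was centred on its median these counts were 953 and 360, with an intensity trend and robust moderation 601 of the former, and with a limit of at least 2-fold 246 and 387. Leaving out 1 array at a time gave 99 to 510 and 120 to 926. The naive comparison, with 3733 genes, gave 5679 after centring, 2167 with the 2-fold limit and 2109 to 4218 without 1 array, and the count of genes whose difference changed, 2278, ranged from 982 to 2774 without 1 array. The replicate numbers did not pair the arrays (correlations of same-numbered deviations from -0.036 to 0.029), and a fit with a replicate block gave 340 and 545 calls on day 25, 3550 in naive cells and 2055 changed differences. *Pfkl* reversed to 0.72 on probe sets not marked as matching several transcripts. Of 99 named genes that were called, 47 kept direction and call in all alternatives run, and 52 lost the call in at least 1. Arrays without raw files give no signal over background, so that a level under 6 was taken as low without a detection call.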
